A study of Mus musculus with 4 samples.

Results

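The amino acid transporter families Slc1a, Slc6a, Slc7a, Slc36a and Slc38a were described in epididymal fat of male mice, on 4 arrays. Members were all genes of the array annotation whose symbol begins with one of these 5 prefixes, with the probe set of the highest mean over the arrays taken for a gene. This gave 57 of 19505 named genes: 7 Slc1a, 19 Slc6a, 16 Slc7a, 4 Slc36a and 11 Slc38a genes. Each member had 1 probe set, so this choice altered no member's value. The prefix rule also takes in Slc7a6os, a gene on the opposite strand of Slc7a6 that encodes no carrier, and it brings in Slc6a genes whose proteins carry GABA, taurine, creatine or monoamines.

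The mice received DMSO (vehicle) or GW4869, which inhibits the release of extracellular vesicles, and underwent sham surgery or synergist ablation, which removes a muscle's helpers and so overloads it. The series asks whether vesicles from overloaded muscle act on fat. Sham and overload under vehicle, and sham and overload under GW4869, made up 4 groups, and groups of 4 readings below keep that order. Each group had 1 array, so no value has a replicate error and no test was possible. The sources used here do not give strain, age, dose, times or the number of mice behind an array. In whole tissue, fewer cells of a type and less RNA per cell cannot be told apart.

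Amino acids cross membranes through carriers that differ in their coupling ions and substrates. Slc1a proteins take up glutamate, aspartate or small neutral amino acids with sodium. Slc7a proteins are either cationic amino acid carriers or light chains that pair with the heavy chains Slc3a1 or Slc3a2 and exchange one amino acid for another. Of the Slc36a proteins, Slc36a1 and Slc36a2 move small amino acids together with protons, Slc36a1 out of lysosomes. Slc38a proteins carry glutamine and other neutral amino acids, by system A (Slc38a1, Slc38a2, Slc38a4) or system N (Slc38a3, Slc38a5), or act at the lysosome. In fat, these carriers feed protein synthesis, glutathione and the supply of nitrogen and carbon to lipid synthesis. Several of them are also known targets of ATF4, the transcription factor switched on when amino acids run short.

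Promoter sequence is shown for Slc7a11, Slc38a5 and Slc1a1, which with Slc7a5 stood above the other arrays in GW4869 overload (values below), because ATF4 and the oxidative stress factor NRF2 are known to act on some carrier genes. RefSeq promoters on GRCm38.p6 were at hand for 41 of the 57 members, with 61 start sites, and the 250 bases before each start were searched on both strands. The ATF4 response core was searched as TGATGNAA and the antioxidant response core as TGACNNNGC. The lines give the strand of the gene, 5′ to 3′, with matches to the ATF4 core in capitals. The Slc7a11 window is chr3:50443614-50443863 on the minus strand, that of Slc38a5 is chrX:8271131-8271380 on the plus strand and that of Slc1a1 is chr19:28834885-28835134 on the plus strand.
Slc7a11: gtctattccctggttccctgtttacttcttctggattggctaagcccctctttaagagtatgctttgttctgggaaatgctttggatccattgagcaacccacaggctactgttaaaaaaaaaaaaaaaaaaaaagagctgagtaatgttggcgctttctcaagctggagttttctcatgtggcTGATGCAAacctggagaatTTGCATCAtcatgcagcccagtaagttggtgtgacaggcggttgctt
Slc38a5: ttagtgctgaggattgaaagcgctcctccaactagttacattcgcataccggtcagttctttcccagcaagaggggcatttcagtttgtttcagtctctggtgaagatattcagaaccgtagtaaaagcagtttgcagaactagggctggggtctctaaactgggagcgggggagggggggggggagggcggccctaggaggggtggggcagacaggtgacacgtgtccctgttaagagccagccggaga
Slc1a1: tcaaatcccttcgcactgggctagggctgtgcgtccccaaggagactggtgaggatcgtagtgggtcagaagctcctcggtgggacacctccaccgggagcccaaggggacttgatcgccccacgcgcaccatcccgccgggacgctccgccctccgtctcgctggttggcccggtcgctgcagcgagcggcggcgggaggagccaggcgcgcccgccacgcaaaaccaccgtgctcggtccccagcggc

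The Slc7a11 window held the ATF4 core 2 times, beginning 66 and 47 bases before the start and in opposite orientations. The windows of Slc38a5 and Slc1a1 held neither core. Among the 61 member start sites, 4 held the ATF4 core, in Slc6a21, Slc7a7 and Slc7a11, against 3.45% of all 32851 promoters. The antioxidant core lay in 7 of the 61, in Slc38a2, Slc6a9, Slc6a11, Slc6a13, Slc7a1 and Slc7a6, against 10.2% of all promoters. These matches describe letters in a window and do not show binding.

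Readings were judged against the antigenomic background rows of the array, which match no mouse sequence. Their 95th percentile, over 23 rows, was 6.40 and 6.35 on the vehicle arrays and 6.34 and 6.37 on those of GW4869, sham named first, in deposited log2 units. Of the 57 members, 20 lay above this bound on all 4 arrays, 8 on 1 to 3 arrays and 29 on none. The share on none was 50.9% of members and 46.2% of all named genes. Readings at or below the bound have no order. Where the lower of a pair lay there, sizes are given as "at least", with that reading raised to the bound.

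The fat label held on every array: all 17 measured mature adipocyte markers lay above background on each, with medians of 16.63 to 17.14. The arrays also differed in transcripts of the male reproductive tract. All 18 sperm and testis markers lay above background on vehicle sham, with readings of 8.48 to 17.92, against 1 on vehicle overload, 1 on GW4869 sham and 4 on GW4869 overload. Of 21 epididymal markers, 18 lay above background on GW4869 overload (median 12.94) and 9, 2 and 3 on the remaining arrays (medians 4.89, 3.64 and 3.81). The 5 distal epididymis and vas deferens markers, a list put together with these data known, were high after sham surgery (medians 12.05 with vehicle, 12.57 with GW4869) and under the bound after overload (3.35 and 4.48). Macrophage markers had medians of 9.05, 9.81, 11.38 and 11.65. The part of any of these cells in the members' values was not tested.

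**Figure D1:**
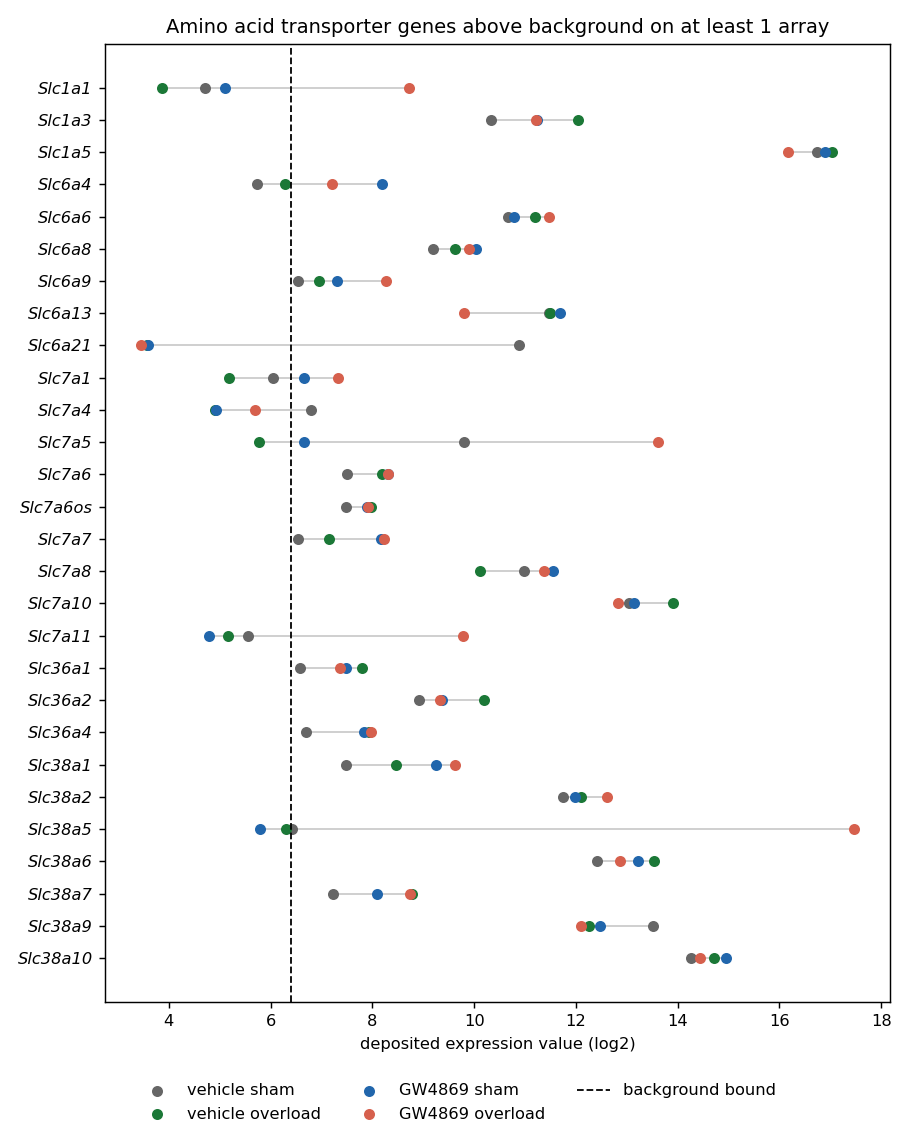
Deposited log2 values of the 28 members above background on at least 1 array, with 1 point per array and the dashed line at the highest of the 4 background bounds. Slc38a5, Slc7a5, Slc7a11 and Slc1a1 lie far to the right on GW4869 overload, and Slc6a21 on vehicle sham.

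Of the 5 families, Slc6a had the largest share of members at background. Of its 19 genes 13 lay at or below the bound on all arrays, against 4 of 7 in Slc1a, 7 of 16 in Slc7a, 1 of 4 in Slc36a and 4 of 11 in Slc38a. The 29 members at background throughout had readings of 1.92 to 6.36. They include the glutamate carriers of astrocytes and neurons Slc1a2 and Slc1a6, the kidney and gut carriers Slc6a18, Slc6a19 and Slc7a9, the noradrenaline and dopamine carriers Slc6a2 and Slc6a3, and the system N carrier Slc38a3. Slc38a4, a system A carrier, is also among them, with 6.36 in vehicle sham just under that array's bound.

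A member counted as called in a comparison where 2 arrays differed by at least 1.5-fold and the higher reading lay above its array's bound. Genes at or below the bound on all arrays could not be called. Shares of members and of all named genes below include such genes. In at least 1 of the 4 comparisons 27 members were called. Of these, 21 differed by at least 1 log2 unit as read, and 19 did so with readings under the bound raised to it. All named genes were counted for each comparison alone, not for a call in at least 1 of the 4. Whether 27 of 57 is unusual among named genes was therefore not tested. Overload against sham under vehicle and GW4869 against vehicle in sham share the vehicle sham array, and the other comparisons share the remaining arrays in the same manner, so their counts are not independent of each other.

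Overload under vehicle came with higher readings of 3 of the 4 Slc36a carriers and of the glutamate carrier Slc1a3. Readings of the leucine carrier Slc7a5 were lower. Without overload, GW4869 sham was also called above vehicle sham for Slc1a3, Slc36a1 and Slc36a4, and below it for Slc7a5. Overload under vehicle had 10 of 57 members higher (17.5%) and 5 lower (8.77%), while 15.4% of all named genes were higher and 10.5% lower. Both shares lay near those of all named genes. The median difference was 0.20 over the 57 members and 0.21 over all named genes. Over the 20 members above background on all arrays the median was 0.57, against 0.30 over all named genes above it on all arrays. Shares called were not counted over such genes. The higher members were Slc1a3, Slc36a1, Slc36a2, Slc36a4, Slc38a1, Slc38a6, Slc38a7, Slc7a6, Slc7a7 and Slc7a10, and the lower ones Slc38a9, Slc6a21, Slc7a4, Slc7a5 and Slc7a8. With arrays centred on the median of all genes, which adds 0.47 to every gene's difference, the split was 17 higher and 4 lower. Adipocyte centring set each array by the median of the 17 adipocyte markers, which on every array was the reading of Cidec. It therefore rests on Cidec alone. With it Slc7a6, Slc7a7 and Slc7a10 were no longer called, at 0.26 to 0.51. With the vehicle overload reading raised to the bound Slc7a4 was under 1.5-fold.

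Overload under GW4869 came with high readings of Slc38a5, Slc7a5, Slc7a11 and Slc1a1. It had 9 of 57 members higher (15.8%) and 3 lower (5.26%), against 6.45% and 7.48% of all named genes. The median difference was -0.00 over the members and -0.05 over all named genes, so the higher members stand at the end of a list whose middle lay near 0. Of the 9, Slc38a5, Slc7a5 and Slc7a11 differed by at least 3 log2 units, Slc1a1 by at least 2.37 and the other 5 by less than 1. Of those 5, Slc38a2, Slc38a7, Slc6a6 and Slc7a1 were under 1.5-fold when arrays were centred on all genes, at 0.52 to 0.58. The lower members were Slc1a5, Slc6a4 and Slc6a13. Centred on all genes the split was 5 higher and 4 lower.

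GW4869 in sham mice had 13 of 57 members higher (22.8%) and 5 lower (8.77%), against 14.5% and 9.47% of all named genes. The median difference was 0.22 over the members and 0.19 over all genes. Over those above background on all arrays it was 0.72 for members and 0.30 for all genes. The count of higher members hung on the scaling. It was 4, with 5 lower, with adipocyte centring, which took off Cidec's difference of 0.50. The median difference over the adipocyte markers was smaller, at 0.15. The count was 5, with 5 lower, when the trend of the difference with level was removed. GW4869 in overloaded mice had 10 members higher (17.5%) and 6 lower (10.5%), against 9.17% and 9.27%, with a median of 0.02 over the members and -0.08 over all genes. Over those above background on all arrays the medians were -0.05 and -0.07. In overload under GW4869 they were -0.02 and -0.06.

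Vehicle overload and GW4869 sham are the only pair of arrays in which neither vehicle sham nor GW4869 overload takes part. They differ in both treatment and surgery, and the pair was added after the data were seen. Between them 4 of 57 members were higher in vehicle overload (7.02%) and 6 lower (10.5%), against 5.01% and 6.85% of all named genes. Apart from Slc7a5, with 5.77 in vehicle overload and 6.65 in GW4869 sham, none of the 5 members with the widest ranges was called in this pair.

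**Figure D2:**
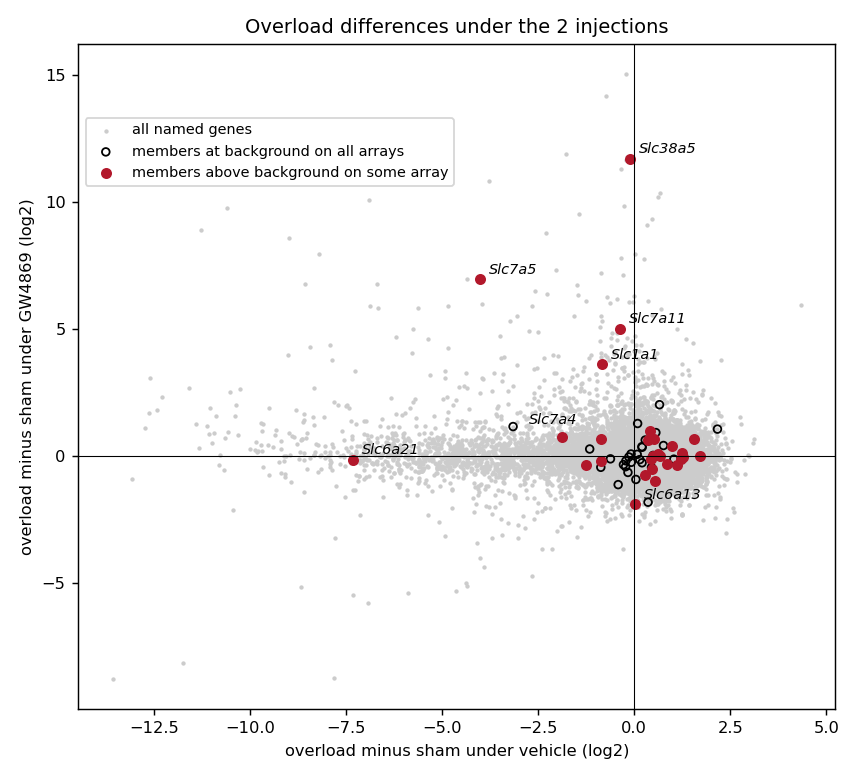
Overload minus sham under vehicle (horizontal) against overload minus sham under GW4869 (vertical), in log2 units as read, with a grey point per named gene and members marked. Slc7a5 lies at -4.02 and 6.96, Slc38a5 at -0.11 and 11.69 and Slc6a21 at -7.32 and -0.14, away from most members near the centre.

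Members were also sorted by whether 1 array stood at least 1 log2 unit apart from each of the other 3, in readings as deposited. GW4869 overload stood above the others for 4 members, Slc1a1, Slc38a5, Slc7a5 and Slc7a11, and for 2.17% of all named genes. It stood below the others for Slc6a13 alone, and for 0.338% of all genes. Vehicle sham stood above the others for Slc38a9, Slc6a21 and Slc7a4 (6.38% of all genes) and below them for Slc36a4 (1.2%). With readings under the bound raised to it, Slc7a4 left this set (5.21% of all genes), and the 4 members of GW4869 overload stayed in theirs (1.75%). Vehicle overload and GW4869 sham stood above the others for 0 members each, and for 0.446% and 0.4% of all genes. Both also stood below the others for 0 members, with 0.508% and 0.0256% of all genes.

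**Figure D3:**
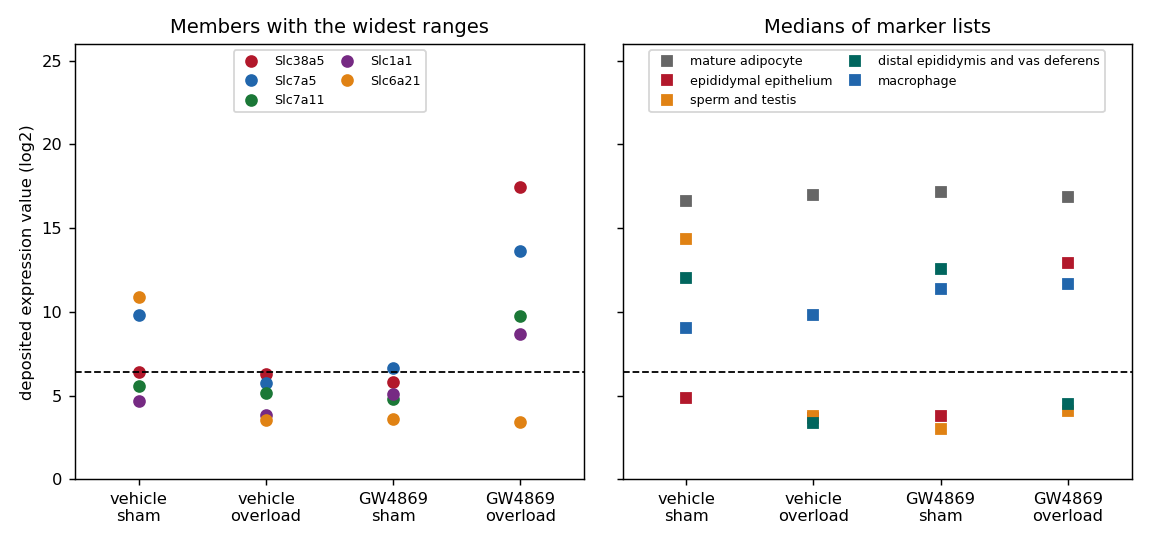
Left, deposited log2 values on each array of the 5 members whose arrays differ by at least 4 log2 units. Right, medians of 5 marker lists on the same arrays; on vehicle overload the epididymal, sperm and distal tract medians (3.35 to 3.77) overlap. The dashed line is the background bound.

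Among glutamate carriers, Slc1a1, which takes up glutamate, aspartate and cysteine, read 4.71, 3.87, 5.10 and 8.71. It was above background on GW4869 overload alone, so the difference from GW4869 sham was at least 2.37 log2 units. Slc1a3, the glial type of glutamate carrier, read 10.33, 12.04, 11.23 and 11.22. It was lowest in vehicle sham and highest in vehicle overload, 1.71 apart, and the GW4869 arrays lay between them. Slc1a5, which exchanges glutamine for other neutral amino acids, read 16.74, 17.03, 16.90 and 16.16. It was lowest in GW4869 overload, by 0.74 from GW4869 sham and by 0.87 from vehicle overload. The former was no longer called with adipocyte centring (-0.49) or trend removal (-0.58).

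Among Slc6a carriers, Slc6a13, which takes up GABA and taurine, read 11.47, 11.49, 11.69 and 9.81. The other 3 arrays lay within 0.22 of each other, and GW4869 overload lay 1.88 below GW4869 sham and 1.68 below vehicle overload. Slc6a9, the glycine carrier GlyT1, read 6.54, 6.95, 7.30 and 8.27, with vehicle sham lowest and GW4869 overload highest. Slc6a4, the serotonin carrier, read 5.73, 6.28, 8.19 and 7.20. Both GW4869 arrays were above background and both vehicle arrays were not. Slc6a4 differed by at least 1.79 between the sham arrays and by at least 0.86 between the overload arrays. Slc6a6 for taurine and Slc6a8 for creatine were above background throughout and spanned 0.80 and 0.84 over the 4 arrays.

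Slc6a21 read 10.89, 3.57, 3.59 and 3.45. Vehicle sham was at least 4.54 above vehicle overload and GW4869 sham, and all readings but its own lay under background. This is the array on which all 18 sperm and testis markers were above background. The 5 genes with the nearest pattern over the 4 arrays, by Euclidean distance of each gene's values about its own mean, were Ppp3r2, 1700009N14Rik, Ube2d2b, Spem2 and Defb28, at distances of 0.08 to 0.23. The distances use readings as deposited, also those under the bound, where readings have no order. Ppp3r2, a calcineurin subunit of testis, read 9.73 in vehicle sham and 2.48, 2.44 and 2.39 on the others.

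Among the light chains of heteromeric exchangers, Slc7a5 (LAT1), which brings in leucine and other large neutral amino acids, read 9.79, 5.77, 6.65 and 13.61. Overload was lower than sham under vehicle, by at least 3.45, and 6.96 higher than sham under GW4869. It was the only member called in opposite directions in the 2 overload comparisons. Slc7a11 (xCT), which imports cystine for glutathione in exchange for glutamate, read 5.55, 5.17, 4.78 and 9.78. Only GW4869 overload exceeded background, by 3.44 or more relative to GW4869 sham. Both proteins work as dimers with the heavy chain Slc3a2, which read 15.58, 15.63, 15.76 and 17.09. Slc3a2 was thus 1.33 and 1.46 higher in GW4869 overload than in GW4869 sham and vehicle overload, while the other 3 arrays spanned 0.18.

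Other light chains moved less and in other orders. Slc7a8 (LAT2), which carries neutral amino acids, read 10.98, 10.12, 11.56 and 11.38. It was lowest in vehicle overload, by 0.86 from vehicle sham and by 1.26 from GW4869 overload. With all-gene centring the difference from vehicle sham was -0.39 and no longer called. Slc7a10 (Asc-1), a carrier of small neutral amino acids known as a surface protein of white adipocytes, read 13.05, 13.91, 13.15 and 12.84. It was highest in vehicle overload, 1.07 above GW4869 overload. Slc7a7 (y+LAT1), which exports cationic amino acids and is prominent in macrophages, read 6.53, 7.14, 8.16 and 8.23, with both GW4869 arrays above both vehicle arrays. In sham mice Slc7a7 was 1.64 higher with GW4869. There all 13 measured macrophage markers were called higher (median 1.69), as were 7 of 9 fibroblast markers (median 1.06), beside 14.5% of all named genes. In overloaded mice Slc7a7 was 1.09 higher. There 9 of the 13 macrophage markers were higher (median 1.39) and 0 fibroblast markers, beside 9.17% of all genes. In overload under vehicle Slc7a7 was 0.61 higher, with 7 macrophage markers higher and 0 lower, beside 15.4% and 10.5% of all named genes. In overload under GW4869 Slc7a7 was not called, at 0.07, with 5 macrophage markers higher and 1 lower, beside 6.45% and 7.48%. Of these macrophage and fibroblast markers 0 lay at background on all arrays, so the shares of all named genes are not matched to them in expression. The part of macrophages in the Slc7a7 readings was not tested. Slc7a6 (y+LAT2) read 7.51, 8.18, 8.31 and 8.30, with vehicle sham lowest.

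Of the cationic carriers, Slc7a1 (CAT-1), the main carrier of arginine and lysine in most cells, read 6.04, 5.19, 6.66 and 7.32. Both vehicle arrays were under background. In sham mice the GW4869 array stood at least 0.26 higher, and in overloaded mice the GW4869 array stood at least 0.97 higher. Slc7a4, a relative of this group, read 6.79, 4.90, 4.93 and 5.69. It passed background on vehicle sham alone, where it was at least 0.45 above vehicle overload and GW4869 sham. Slc7a6os was the only member above background on all arrays whose readings spanned less than 1.5-fold, from 7.49 to 7.97.

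Of the 4 Slc36a carriers 3 were above background on every array and all 3 were called higher in overload under vehicle, also with arrays centred on all genes or on adipocyte markers and after trend removal. Slc36a1 (PAT1), a lysosomal carrier of small amino acids, read 6.58, 7.79, 7.47 and 7.37. Slc36a2 (PAT2), known as a surface marker of thermogenic fat cells, read 8.92, 10.19, 9.36 and 9.32. Slc36a4 read 6.69, 7.93, 7.84 and 7.97. Vehicle sham was the lowest array for each of them, 1.21, 1.27 and 1.24 below vehicle overload. GW4869 sham was also called above vehicle sham for Slc36a1 and Slc36a4, by 0.89 and 1.15, and not for Slc36a2, at 0.44. The Slc36a1 difference was no longer called with adipocyte centring (0.39) or trend removal (0.53). Under GW4869 the overload differences of the 3 carriers were -0.11, -0.04 and 0.13, and none was called. No test of the difference between the treatments was possible.

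Among Slc38a carriers, Slc38a5 (SNAT5), a system N carrier of glutamine, histidine and serine, had the widest range of the 57 members. It read 6.41, 6.31, 5.79 and 17.47. GW4869 overload was at least 11.13 above GW4869 sham and at least 11.12 above vehicle overload, and the other 3 readings lay under the bound or, in vehicle sham, just above it. Slc38a5 was also called lower in GW4869 sham than in vehicle sham, at -0.63, which is 0.07 in size once the GW4869 reading is raised to the bound. The 5 genes nearest to Slc38a5 in pattern were Fgg, Ovch2, Cstdc2, Defb20 and Lcn8, at distances of 0.59 to 1.28. These distances use readings under the bound as deposited. Fgg, the nearest, read 13.72 in GW4869 overload and 2.14 to 2.49 elsewhere, against 17.47 for Slc38a5 in GW4869 overload. Ovch2, Defb20 and Lcn8 are in the list of epididymal markers, and Lcn8, an epididymal lipocalin, read 15.86 in GW4869 overload and 3.35 to 4.12 elsewhere.

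Slc7a5 was nearest to Ceacam10, Spink12, Rnf128, Rbm11 and Ehf, at distances of 0.97 to 1.37. Ehf, an epithelial transcription factor, read 7.61, 4.38, 6.14 and 11.45. Slc7a11 was nearest to Tspan1, Dsg2, Gm4846, Ido1 and Defb35, at 0.36 to 0.52, and Slc1a1 to Hspa1a, Scnn1a, B4galnt1, St14 and Tnfaip6, at 0.27 to 0.57. These distances, too, use readings under the bound. Dsg2, a desmosomal cadherin, read 8.69 in GW4869 overload and 3.92 to 4.52 elsewhere. Cdh1, the epithelial cadherin, is not among these nearest genes and was taken from the list of 10 mesothelial and epithelial markers. That list had 5 genes higher and 4 lower in overload under GW4869. Cdh1 read 10.67, 4.46, 9.40 and 14.07. From lowest to highest its arrays stood in the same order as those of Slc7a5. What part epithelial cells had in the Slc7a5 readings was not tested.

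Of the system A carriers, Slc38a1 (SNAT1) read 7.48, 8.46, 9.24 and 9.63. Each GW4869 array was above its vehicle partner, by 1.77 in sham and 1.17 in overload, and each overload array was above its sham partner, by 0.98 and 0.39. Slc38a2 (SNAT2), which is induced when amino acids run short, read 11.75, 12.11, 11.98 and 12.61. Its one called difference was 0.63, between the GW4869 arrays, and 0.52 with all-gene centring, under 1.5-fold.

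Slc38a7, which exports glutamine from lysosomes, read 7.23, 8.78, 8.08 and 8.74. It was the only member called higher in both overload comparisons, by 1.56 and 0.66; with all-gene centring the latter was 0.55. Slc38a6 read 12.42, 13.54, 13.22 and 12.86, highest in vehicle overload and lowest in vehicle sham. Slc38a9, the lysosomal arginine sensor that signals to mTORC1, read 13.51, 12.26, 12.47 and 12.11. Vehicle sham was the highest array here, 1.25 above vehicle overload and 1.04 above GW4869 sham, and the other 3 spanned 0.37. Slc38a10 read 14.26, 14.71, 14.95 and 14.44.

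Related genes outside the 5 prefixes were read from lists of partners, other carriers and amino acid pathways. Their counts stand beside 15.4% of all named genes higher and 10.5% lower in overload under vehicle, 6.45% and 7.48% in overload under GW4869, 14.5% and 9.47% for GW4869 in sham, and 9.17% and 9.27% for GW4869 in overload. Of all named genes, 46.2% lay at background on all arrays and could not be called. Of the lists, 0 of 21 branched-chain breakdown, 2 of 29 amino acid sensing and 3 of 30 ATF4 genes did. So did 2 of 13 glutamine, glutamate and glutathione enzymes, 8 of 24 other carriers and 3 of 7 heavy chains and partners. The shares of all named genes are thus not matched to the lists in expression, and matched shares were not counted. In overload under vehicle 14 of 24 measured amino acid carriers of other families were called higher and 0 lower, with a median of 0.88 (0.21 over all genes). Slc43a1, a leucine carrier, was 1.90 higher, its relative Slc43a2 1.04 and Slc25a44, the mitochondrial branched-chain carrier, 1.38. Slc25a15, the mitochondrial ornithine carrier, was at least 0.60 higher, with the sham reading under the bound. Under GW4869 2 were higher and 1 lower, with a median of 0.01. GW4869 in sham had 12 higher and 0 lower (median 0.61), and GW4869 in overload 3 higher and 6 lower (median -0.17).

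Branched-chain amino acid breakdown, which in fat clears leucine, isoleucine and valine brought in by carriers such as Slc7a5, differed in its counts between the overload comparisons. Of 21 measured genes 16 were called higher and 0 lower under vehicle, with a median of 0.90, and 1 higher, 9 lower and 11 uncalled under GW4869, with a median of -0.47. Ppm1k, the phosphatase that activates the branched-chain dehydrogenase, read 7.43, 9.64, 8.86 and 8.97. Bckdha, a subunit of that dehydrogenase, read 9.65, 11.21, 10.78 and 9.86, and Bcat2, the mitochondrial aminotransferase, 10.52, 11.94, 11.35 and 10.38. Mccc1 and Mccc2, the subunits of the leucine-pathway carboxylase, were 1.44 and 1.11 higher under vehicle and had -0.97 and -1.03 under GW4869. Pccb, a propionyl-CoA carboxylase subunit, was 1.01 higher and had -1.10. In GW4869 against vehicle among overloaded mice 18 of 21 were lower and 1 higher, with a median of -1.17; the higher one, Bcat1, the cytosolic aminotransferase, lay above background on GW4869 overload alone, at least 0.17 higher. In sham mice 5 were higher and 0 lower. Mature adipocyte markers had 7 of 17 higher and 0 lower in overload under vehicle (median 0.35), 0 higher and 3 lower in overload under GW4869 (median -0.38), and 0 higher and 9 lower in GW4869 against vehicle among overloaded mice (median -0.61). Endothelial markers had 7 of 11 higher and 0 lower (median 0.91), 0 higher and 6 lower (median -0.65), and 0 higher and 9 lower (median -0.82) in the same comparisons. The part of either cell type in the counts of branched-chain genes was not tested.

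Genes of ATF4 and the amino acid response went in both directions. Under vehicle 6 of 30 measured were higher in overload and 5 lower, and under GW4869 7 were higher and 4 lower, with medians of 0.25 and 0.18. Over all genes the shares were 15.4% and 10.5% under vehicle and 6.45% and 7.48% under GW4869. Atf4 itself read 11.28, 11.75, 11.98 and 13.37, and in GW4869 overload it was 1.39 above GW4869 sham. Mthfd2, a mitochondrial folate enzyme, was 1.74 higher in the same comparison, Wars, a tryptophan tRNA ligase also induced by interferon, 1.74 higher, and Aldh18a1, which makes proline precursors, at least 0.24 higher, with the sham reading under the bound. In overload under vehicle Mthfd2 and Wars were called lower, at -1.15 and -2.57, and Atf4 and Aldh18a1 were not called. Atf5, a transcription factor downstream of Atf4, read 6.72, 8.05, 8.41 and 8.62, and Atf3, a stress-induced factor, 7.15, 7.33, 8.85 and 8.18. Phgdh, the entry enzyme of serine synthesis, had -1.17 in overload under GW4869, and Asns, the asparagine synthetase, was not called, at 0.14. GW4869 against vehicle gave 5 higher and 4 lower in sham and 9 higher and 8 lower in overload.

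Enzymes of glutamine, glutamate and glutathione had 4 of 13 higher and 2 lower in overload under vehicle, and 5 higher and 1 lower under GW4869. Gclm, the modifier subunit of the enzyme that commits cysteine to glutathione, read 11.63, 11.07, 10.83 and 14.20. Its catalytic partner Gclc was 0.77 higher in overload under GW4869, and Gss and Gsr, which complete and recycle glutathione, were 0.67 and 0.70 higher. Got2, the mitochondrial aspartate aminotransferase, read 14.15, 11.64, 12.39 and 14.55, and its cytosolic counterpart Got1 7.05, 6.23, 7.29 and 7.62. Gpt, which makes alanine, read 9.68, 10.34, 10.22 and 8.53. GW4869 against vehicle had 1 higher and 2 lower in sham and 5 higher and 3 lower in overload.

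Genes of amino acid sensing upstream of mTORC1 had 10 of 29 higher and 0 lower in overload under vehicle (median 0.53, beside 15.4% and 10.5% of all genes), and 1 higher and 0 lower under GW4869 (median -0.05). Mlst8, a core subunit of the kinase complex, was 1.16 higher under vehicle, Sesn1, a stress-induced sestrin, 0.95 and Lamtor4, part of the lysosomal anchor of the complex, 0.67. Mios, of the GATOR2 complex, read 6.66 in vehicle overload and lay under the bound on the other 3 arrays. GW4869 against vehicle had 8 higher and 0 lower in sham and 1 of each in overload. Heavy chains and partner proteins of the carriers had 1 of 7 higher and 1 lower under vehicle, and 3 higher and 0 lower under GW4869. GW4869 had 1 higher and 0 lower in sham mice and 3 higher and 0 lower in overloaded mice. Besides Slc3a2, these were Nedd4l, a ubiquitin ligase that removes carriers and channels from the membrane, with 9.54, 8.75, 9.80 and 11.57, and Sgk1, a kinase that opposes it, with 8.02, 8.77, 9.22 and 10.23. Slc3a1, the heavy chain of the kidney cystine carrier, was at background on all arrays.

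**Figure D4:**
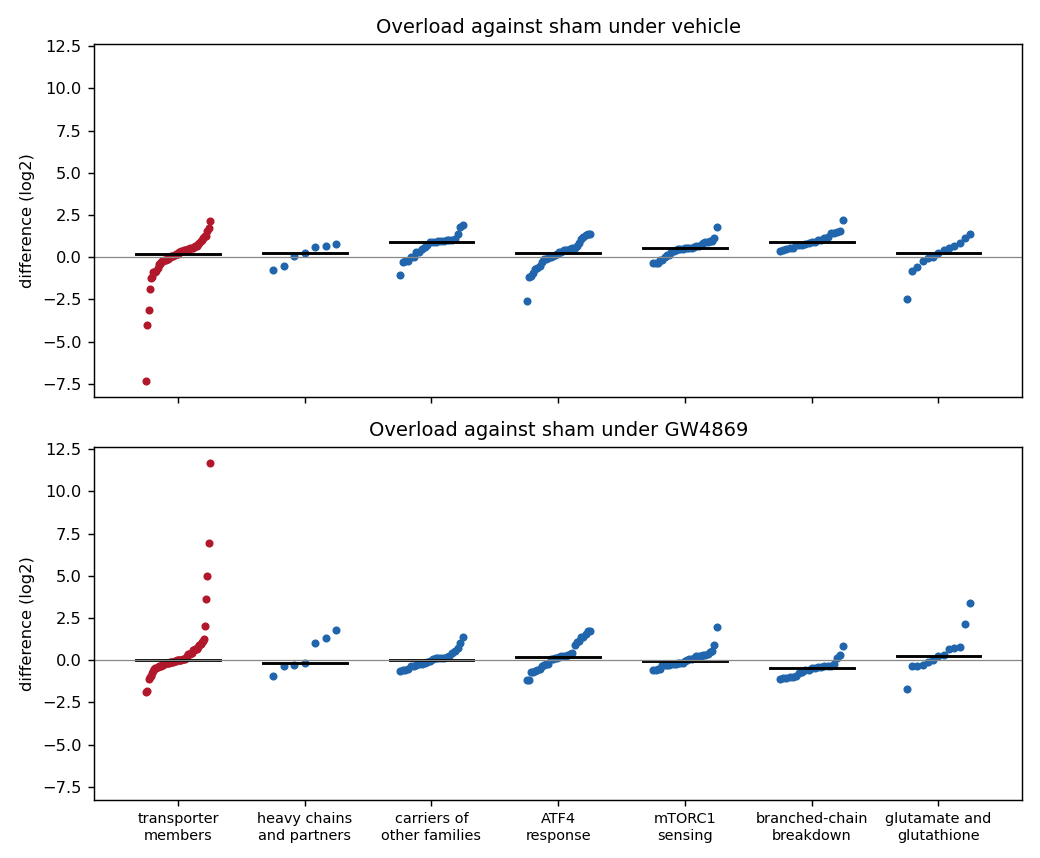
Log2 differences between overload and sham under vehicle (top) and under GW4869 (bottom), with a point per gene, sorted within each list, and a bar at the median. The branched-chain breakdown list lies above 0 under vehicle (median 0.90) and mostly below it under GW4869 (median -0.47), while the 57 transporter members have medians of 0.20 and -0.00.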

How the data were processed

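RNA of epididymal fat was hybridised to Clariom S Mouse arrays, 1 per group, with groups taken from the sample titles. Values were used as the authors deposited them, on a log2 scale with 1 value per probe set and array. The submitters' processing notes name Partek and RMA. Versions, the genome build and the step that takes values up to 19.93 are not stated in the sources used. The platform annotation gave 19572 probe sets 1 gene symbol and 0 several; 2615 of 22142 transcript clusters were unnamed here. All 57 members matched a RefSeq gene by identifier. Because only 1 array stood for each group, no error model or p-value was used, and the number of arrays limits every value. Differences of log2 values were counted at 1.5-fold with a background bound, by the same rule over all 19505 genes. Members called by at least 1 log2 unit as read are named with all readings, as is the steady member; the other called members were described after their values were seen; in related lists up to 4 called genes with the largest differences, and others chosen after their values were seen, were named. Nearest patterns were listed for members spanning at least 4 log2 units, on readings as deposited, without raising those under the bound. Alternatives changed the scaling, the bound, the fold and the probe set rule; raising readings to the bound, leaving out Slc7a6os and the pair of vehicle overload and GW4869 sham were added after the data were seen. The counting code was checked on simulated arrays of well-expressed genes with known large shifts, which does not test calls near the bound or the fold threshold. The members and lists were chosen with earlier results of these data known. Work was done in Python 3.11.15 with pandas 2.3.3, numpy 2.4.6 and statsmodels 0.14.6.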

Additional observations from a re-analysis of the deposited data

Results flagged for a closer look

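Slc7a5 was called in opposite directions by overload under the 2 treatments. As read, it had -4.02 with vehicle and 6.96 with GW4869, which differ by 10.98 log2 units. The vehicle overload reading lay under the background bound, so overload was lower by at least 3.45 under vehicle and the 2 differences were at least 10.41 apart. This was not tested, since each group had 1 array. Of the 10 mesothelial and epithelial markers 1 was higher and 5 lower in overload under vehicle (median -1.70), and 5 were higher and 4 lower under GW4869 (median 1.31). Over all named genes 15.4% were higher and 10.5% lower under vehicle, and 6.45% and 7.48% under GW4869. These shares include genes at background on all arrays, which 0 of the 10 markers were. Cdh1, Krt8, Krt18 and Epcam were called lower under vehicle, by at least 4.32, 2.10, 2.71 and 2.15, and higher under GW4869, by 4.67, 3.99, 3.58 and 2.96. Cldn4 was uncalled under vehicle, with both readings under the bound, and at least 4.93 higher under GW4869. Krt19 had -1.30 and an uncalled -0.34, and the mesothelial genes Upk3b, Msln, Wt1 and Lrrn4 had -1.59, -0.78, -1.25 and -1.04 under GW4869. The part of these cells in the Slc7a5 readings was not tested.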

How the results depend on the processing

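Centring arrays on the median of all genes added 0.47, -0.10, 0.36 and -0.22 to every difference (overload under vehicle, then under GW4869, then GW4869 in sham, then in overload). Centring on the median adipocyte marker added -0.35, 0.24, -0.50 and 0.09. That marker was Cidec on every array, so this centring rests on Cidec alone. The median differences over the 17 markers were 0.35, -0.38, 0.15 and -0.61. All-gene centring gave 17 members higher in overload under vehicle and 5 under GW4869, medians of 0.68 (overload under vehicle) and -0.20 (GW4869 in overload), and 8 members with 1 array below the other 3. Adipocyte centring gave 4 members higher with GW4869 in sham. Its member medians were -0.14, 0.24 and -0.28 in overload under vehicle, overload under GW4869 and GW4869 in sham. Over all named genes they were -0.14, 0.19 and -0.31. Either centring moves every gene by the same amount, so medians over members and over all genes move together. Trend removal gave medians of 0.0072 in overload under vehicle and -0.022 for GW4869 in sham, with 5 members higher in the latter. At 2-fold, 6 members were higher in overload under vehicle, 4 higher and 1 lower in overload under GW4869, 4 higher with GW4869 in sham and 2 lower with GW4869 in overload. With the bound at the 40th percentile of gene means (4.67), 8 and 5 members were lower in overload under vehicle and under GW4869. With no bound, 11 were lower in overload under vehicle, 16 higher and 7 lower in overload under GW4869, 22 higher and 9 lower with GW4869 in sham, 17 higher with GW4869 in overload, and 11 had 1 array above the others. The 61 called member differences gave 244 recomputed values. Of these, 213 stayed at 1.5-fold or more in the same direction, 31 went below it and 0 changed sign. Averaging probe sets gave 61 of the 213 and could not move them, as each member had 1 probe set. All-gene centring kept 55 of the 61 differences, adipocyte centring 48 and trend removal 49. Leaving out Slc7a6os, which was called in no comparison, altered no count, and neither did averaging probe sets. Neither could have altered one. Shares of all named genes were not counted under these scalings, bounds and fold. No array could be left out within a group. No paired analysis was possible because each group had 1 array. The causes of these changes were not tested.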
